A study of Mus musculus with 4 samples.

Results

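Small nucleolar RNAs (snoRNAs) and the genes that host them were compared between the Undiff and Day4 states of mouse R1 ESCs. Their genes were taken by symbol, as all those named Snord or Snora with a number, those named Snhg with a number, and Gas5. This gave 126 of the 24421 genes in the count files, with 74 box C/D snoRNA genes (Snord), 36 box H/ACA snoRNA genes (Snora) and 16 spliced host genes (Snhg genes and Gas5). Undiff libraries were made from the established mouse ESC line R1, for which the labels name no genetic change, kept 4 days in ESC growth medium and described as maintained ESCs in the methods and as embryoid bodies in the labels. Day4 libraries were made from embryoid bodies cultured for 4 days without leukaemia inhibitory factor and then treated for 4 days with retinoic acid (RA), at 2 µM in the paper and 2 mM in the labels. The states therefore differ in the withdrawal of that factor and in culture time as well as in RA. By the methods they also differ in growth as embryoid bodies. These differences cannot be told apart. Each state had 2 biological replicates, cultured and treated separately.

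SnoRNAs are short stable RNAs of the nucleolus that guide the chemical modification of ribosomal RNA. Box C/D snoRNAs direct methylation of the ribose, whereas box H/ACA snoRNAs direct the conversion of uridine to pseudouridine. In mammals most of them are cut from introns of host genes, many of which encode ribosomal proteins or nucleolar proteins, while others are noncoding genes of the Snhg type. Spliced Snhg and Gas5 transcripts are known as targets of nonsense-mediated decay, which removes RNAs with early stop codons. The mature snoRNA has no poly(A) tail, and the library kit named in the methods selects poly(A) RNA, while the labels also name a kit for total RNA. Fragments of a mature snoRNA and fragments of a host precursor that cross the same interval cannot be told apart in these counts.

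The GENCODE vM21 annotation (GRCm38, also called mm10) placed 73 box C/D and all 36 box H/ACA genes. The box C/D genes were 64 to 238 bases long with a median of 80, and the box H/ACA genes were 121 to 196 bases long with a median of 132. A sequence of each class is shown from the genes with the most counts, together with members of Gas5 and Snhg12 and the box C/D gene Snord104, whose counts did not fall. Capitals mark TGATGA in the first 20 bases and CTGA in the last 12 bases of box C/D genes, which are letters of their C and D boxes, and ACA in the last 8 bases of box H/ACA genes.
Snord96a: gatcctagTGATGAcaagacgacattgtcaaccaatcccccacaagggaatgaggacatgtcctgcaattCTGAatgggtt
Snord99: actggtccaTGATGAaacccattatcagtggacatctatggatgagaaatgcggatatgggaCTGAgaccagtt
Snord47: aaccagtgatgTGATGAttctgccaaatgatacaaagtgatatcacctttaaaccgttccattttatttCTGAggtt
Snord104: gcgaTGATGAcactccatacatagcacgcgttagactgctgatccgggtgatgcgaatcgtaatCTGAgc
Snora65: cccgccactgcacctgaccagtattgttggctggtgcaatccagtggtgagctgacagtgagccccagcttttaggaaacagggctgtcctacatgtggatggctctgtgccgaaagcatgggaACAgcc
Snora16a: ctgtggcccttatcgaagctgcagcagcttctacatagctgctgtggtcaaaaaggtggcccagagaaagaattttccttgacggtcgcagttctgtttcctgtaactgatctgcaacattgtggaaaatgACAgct
These sequences are given 5′ to 3′ on the strand of the gene. Snord96a lies at chr11:48802032-48802112 inside Rack1 (listed as Gnb2l1 in the count files), Snord99 at chr4:132310691-132310764 inside Snhg12, and Snord47 at chr1:161038082-161038158 inside Gas5. Snord104 lies at chr11:106500993-106501062, where no host gene is annotated on its strand. Snora65 lies at chr2:32963291-32963420 inside Rpl12, and Snora16a at chr4:132309464-132309600 inside Snhg12. All 6 are on the plus strand. The annotation holds 2 entries named Snora16a, and a single one was used here. TGATGA stood in the first 20 bases of 46 of the 73 box C/D genes (63%) and of 0 of the 36 box H/ACA genes. CTGA stood in the last 12 bases of 60 box C/D genes (82.2%) and of 2 box H/ACA genes (5.56%), and ACA stood in the last 8 bases of 34 box H/ACA genes (94.4%) and of 6 box C/D genes (8.22%). Among 3692 annotated miRNA, snRNA and misc_RNA transcripts of 60 to 240 bases, read on their own strand, the shares were 0.135% for TGATGA, 3.3% for CTGA and 12.2% for ACA in these windows. Only the strand of the gene was searched. In Snora17 and Snora43, the 2 box H/ACA genes with CTGA, this motif shares its last base with ACA.

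The 4 libraries held 32099074 to 47730944 counts on genes, at which 3 counts are 0.0629 to 0.0935 CPM (counts scaled to a library of 1e+06). Fragments assigned to no gene were 12.1% and 13.2% of the fragments in Undiff and 7.5% and 7.74% in Day4, a share that was lower in both Day4 libraries. All 7 pluripotency markers fell, with a summed normalized count of 132510 and 136216 in Undiff and 787 and 660 in Day4. All 5 endoderm markers rose, while 2 neural progenitor markers rose and 2 fell, 1 mesoderm marker rose and 2 fell, and 5 fibroblast markers rose and 1 fell. The summed fibroblast list went from 2411 and 2240 to 62459 and 56914. In bulk libraries fewer cells of a type and less RNA per cell cannot be told apart. The part of the cell types in the results on snoRNAs was not tested.

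Counts on snoRNA genes fell in Day4 in both classes. Of the 74 box C/D genes, 62 had a count in any library and 43 were called lower, which means an adjusted p-value of at most 0.05, a log2 fold change of -1 or below and a normalized count that averaged 5 or more in edgeR's quasi-likelihood test. Of the 36 box H/ACA genes, 31 had a count and 24 were called lower. No snoRNA gene was called higher. Over all 19891 genes with a count, 20.6% were called lower and 22.2% higher, against 69.4% of the counted box C/D genes and 77.4% of the counted box H/ACA genes called lower. The median log2 fold change was -2.59 over the 62 box C/D genes and -2.58 over the 31 box H/ACA genes, against -0.03 over all genes tested. With genes at 0 in a state set to their bound, these medians were -2.48 and -2.58. The quartiles were -3.31 and -2.0 for box C/D and -3.03 and -2.11 for box H/ACA.

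The remaining members were low or absent. No count was found in any library for 12 box C/D genes and 5 box H/ACA genes, among them Snord116, Snord116l1 and Snord116l2 of the imprinted cluster on chromosome 7. The authors counted uniquely mapped fragments, which lowers the counts of near-identical gene copies. A further 15 box C/D genes and 7 box H/ACA genes had a count but a mean normalized count below 5, and they stand outside the call by that minimum. A gene could pass this minimum through Undiff alone, so shares are given over all genes with a count. Of the 47 box C/D genes above the minimum, 4 were not called, namely Snord104, Snord91a, Snord42a and Snord98, and of the 24 box H/ACA genes above it, 0 were not called.

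**Figure D1:**
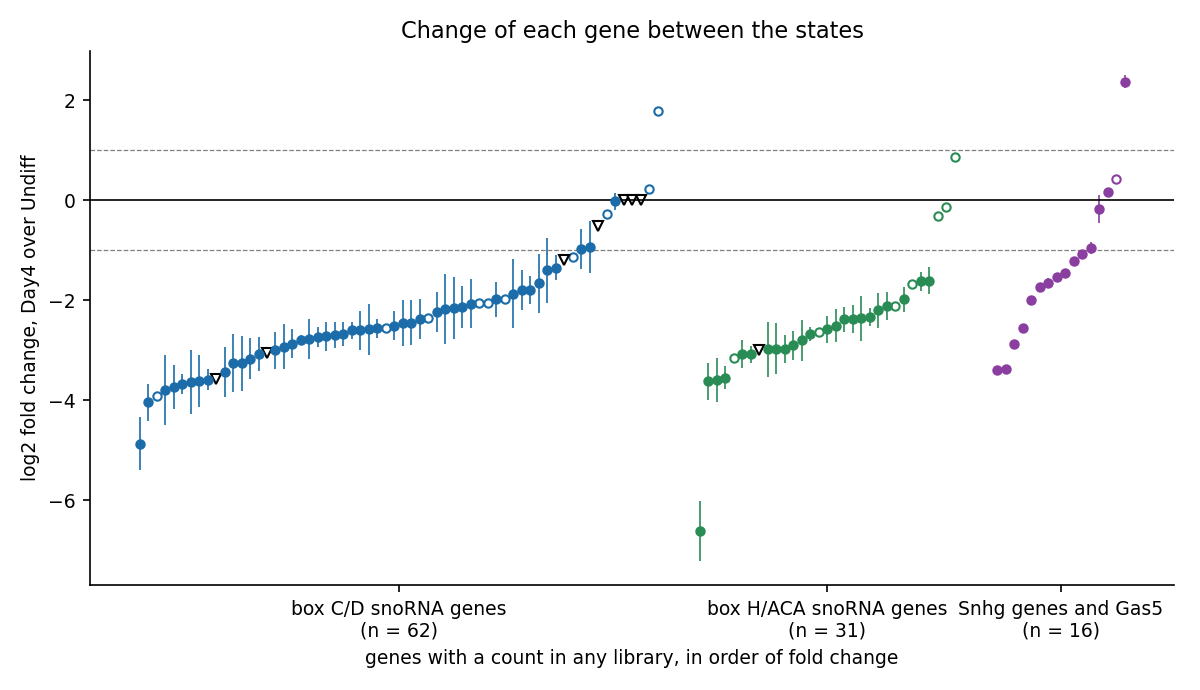
Log2 fold change of Day4 over Undiff (vertical axis) for each snoRNA gene, Snhg gene and Gas5 with a count, ordered within its class. Filled points are genes whose normalized count averaged 5 or more with bars of 1 SE, open points are genes below it, and open triangles are genes at 0 in a state, drawn at their bound against 3 counts. Dashed lines mark log2 fold changes of 1 and -1. Both snoRNA classes lie mostly between -4 and -1, Snord104 lies at -0.02, and Snhg18 lies highest at 2.37. The lowest box H/ACA point, Snora74a, rests on 1 Day4 count.

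Summed over each class, the fall was near 6-fold. Box C/D genes summed to 3727 and 3512 counts in Undiff and to 626 and 923 counts in Day4. Scaled to the effective library sizes, these sums were 4043 ± 225 in Undiff and 681 ± 38.7 in Day4 (SD, n = 2), a 5.93-fold lower value in Day4. Box H/ACA genes summed to 2223 and 1999 counts in Undiff and to 372 and 513 in Day4, or 2354 ± 53.2 and 391 ± 3.73 after scaling, a 6.02-fold lower value. The log2 ratios of the sums, -2.57 and -2.59, differed by 0.02. The root of the summed replicate variances of the 2 states was larger, at 0.11 for box C/D and 0.04 for box H/ACA on the log2 scale. Box C/D genes took 62.6% and 63.7% of the snoRNA counts in Undiff and 62.7% and 64.3% in Day4, so that the split between the classes stayed within 2 percentage points while the whole went from 162 and 172 to 28.5 and 30.1 CPM. With 2 libraries against 2, an exact permutation test of a single value cannot go below p = 0.333, and no test was made of the sums.

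Fragments assigned to no gene also fell, by less. Their scaled number was 1.84-fold lower in Day4. Per 1e+06 of these fragments, box C/D genes had 723 and 701 counts in Undiff and 216 and 226 in Day4, and box H/ACA genes had 431 and 399 against 129 and 125. On this scale the sums were 3.22-fold and 3.27-fold lower in Day4, and the states did not overlap. Intronic fragments are among those assigned to no gene. Counts on snoRNA genes, on which intronic fragments can also be counted, moved in the same direction as these fragments, and the part of intronic fragments in the result was not tested.

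**Figure D2:**
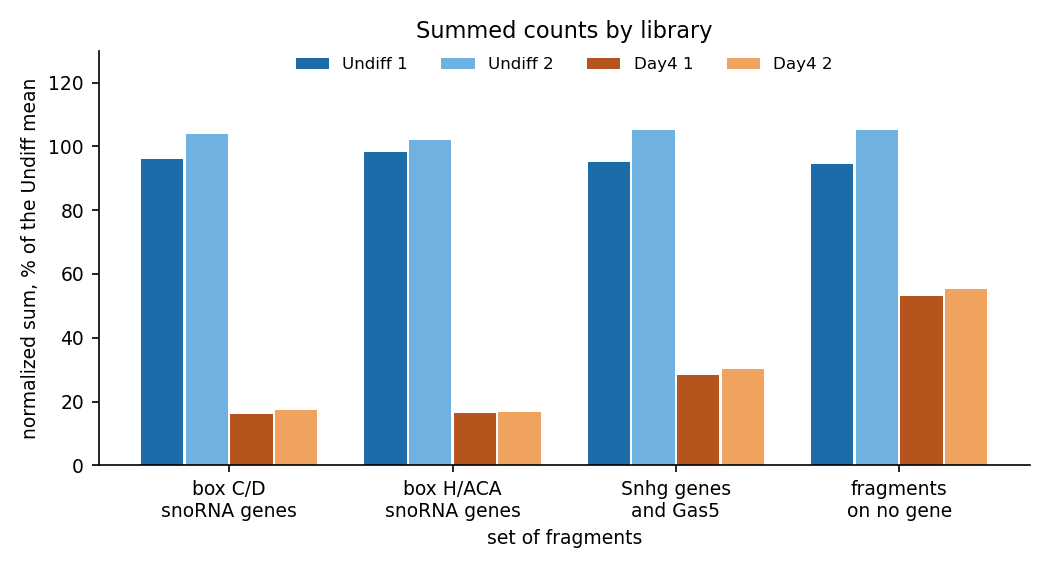
Summed normalized counts in each library as a percentage of the Undiff mean (vertical axis, from 0) for box C/D genes, box H/ACA genes, the Snhg genes with Gas5, and fragments on no gene. Bars are single libraries. In the Day4 libraries the box C/D sum is at 16.2% and 17.5%, the box H/ACA sum at 16.5% and 16.7%, the host sum at 28.3% and 30.3%, and the fragments on no gene at 53.2% and 55.3%.

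Among box C/D genes, Snord96a had the most counts, with 891 and 850 in Undiff and 141 and 174 in Day4. Its normalized count fell from 973 ± 62.6 to 140 ± 9.69 (SD, n = 2), a log2 fold change of -2.80 (SE 0.10, adjusted p = 8.4e-12, edgeR). Without it the log2 ratio of the class sum was -2.51. Snord22, inside Snhg1, had 346 and 240 counts in Undiff and 46 and 75 in Day4 (log2 fold change -2.60, SE 0.17, adjusted p = 5.7e-09, edgeR). Snord64 lies on chromosome 7 over an exon of an isoform of the coding gene Gm38393, which was not matched in the count files. It lies beside the annotated span of Snhg14, in the imprinted region that also holds the Snord116 genes. It had 240 and 267 counts in Undiff and 18 and 35 in Day4, a log2 fold change of -3.59 (SE 0.21, adjusted p = 2.4e-09, edgeR). Snord52 went from 175 and 192 to 33 and 45 counts (log2 fold change -2.56). In each of these 4 genes the lowest Undiff library was above the highest Day4 library.

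Snord43, Snord1b, Snord57 and Snord19 had the lowest fitted log2 fold changes of the called box C/D genes, an order that for genes at 0 in Day4 is not one of measured size. Snord43 lies in an intron of the ribosomal protein gene Rpl3, and the annotation types its entry as miRNA. It had 31 and 27 counts in Undiff and 0 in both Day4 libraries, at least 11.9-fold lower against 3 counts. Snord1b had 24 and 17 counts in Undiff and 0 in both Day4 libraries, at least 8.34-fold lower. That bound is a smaller change than the log2 fold changes of Snord83b at -3.74 (SE 0.44) and Snord99 at -3.68 (SE 0.20). Snord57, inside Nop56, had 35 and 41 counts in Undiff and 1 and 2 in Day4, a ratio of 31.9 with a 95% counting interval of 10.5 to 158. Snord19, inside Gnl3, went from 69 and 52 counts to 3 and 6, a log2 fold change of -4.04 (SE 0.37). Both Snord57 and Snord19 lie in genes of nucleolar proteins that themselves fell, Nop56 being a core protein of box C/D particles and Gnl3 the nucleolar GTPase nucleostemin. Intervals and bounds cover counting error only.

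The called box C/D genes with the smallest falls were Snord4a at -1.35 (SE 0.25), Snord71 at -1.66 (SE 0.59), Snord72 at -1.79 (SE 0.28) and Snord89 at -1.80 (SE 0.40). Snord71 had 10 and 13 counts in Undiff and 6 and 3 in Day4, and its call was lost under DESeq2 (adjusted p = 0.16), in thinned libraries (0.053), and without Undiff replicate 2 (0.11) or Day4 replicate 2 (0.18). Snord104 stood apart from all of these, with 87 and 87 counts in Undiff and 99 and 117 in Day4. Its normalized count was 97.4 ± 9.5 in Undiff and 96.6 ± 9.61 in Day4 (log2 fold change -0.02, SE 0.17, adjusted p = 0.92, edgeR), and the states overlapped. Snord91a had 18 and 26 counts against 14 and 14 (log2 fold change -0.98, SE 0.40, adjusted p = 0.040, edgeR), just short of the fold minimum. Snord42a and Snord98 had log2 fold changes of -0.94 and -1.40 with adjusted p-values of 0.12 and 0.069 (edgeR), on 12 or fewer counts in each library.

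Box H/ACA genes were led by Snora65, with 467 and 357 counts in Undiff and 79 and 83 in Day4. Its normalized count fell from 457 ± 42.1 to 73.1 ± 13.3 (SD, n = 2), a log2 fold change of -2.67 (SE 0.14, adjusted p = 5.9e-10, edgeR). Snora61, inside Snhg12, went from 212 and 194 counts to 26 and 34 (log2 fold change -3.08, SE 0.17). Snora81 went from 169 and 166 to 33 and 50 (log2 fold change -2.34, SE 0.18), and Snora28, in Eif5, from 140 and 102 to 44 and 55 (log2 fold change -1.62, SE 0.19). The states were separate in all 4 genes, and Snora28 kept the largest share of its Undiff level among them.

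The lowest fitted log2 fold changes of the called box H/ACA genes were those of Snora21, Snora74a, Snora52 and Snora44, with the same limit on the order. Snora21, in an intron of Rpl23, had 22 and 17 counts in Undiff and 0 in both Day4 libraries, at least 7.96-fold lower. Snora74a had 48 and 51 counts in Undiff and 0 and 1 in Day4, a ratio of 125 with a counting interval of 21.9 to 4971. Snora52, inside Rplp2, went from 81 and 49 counts to 6 and 7 (log2 fold change -3.62, SE 0.37), and Snora44, inside Snhg12, from 38 and 32 to 2 and 5 (-3.60, SE 0.44). The called box H/ACA genes with the smallest falls were Snora64 at -1.61 (SE 0.27), Snora28 at -1.62, Snora7a at -1.98 (SE 0.25) and Snora5c at -2.12 (SE 0.28). Neighbours in this order differed by less than 2 of their SEs. Snora47 was the only counted box H/ACA gene with a log2 fold change above 0, at 0.87 (SE 0.72), on 2 and 4 counts in Undiff and 4 and 10 in Day4.

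Most of the spliced host genes were lower in Day4 too. Of the 16 Snhg genes and Gas5, 11 were called lower (68.8%, against 20.6% of all genes), 1 was called higher and 4 were not called. Their median log2 fold change was -1.50, with quartiles of -2.14 and -0.76. Gas5, a noncoding host of box C/D snoRNAs that accumulates when growth stops, had the most counts of them. Its normalized count was 7606 and 8330 in Undiff and 2571 and 2901 in Day4 (log2 fold change -1.54, SE 0.06, adjusted p = 4.2e-11, edgeR). Snhg1, the host of Snord22, went from 5697 ± 383 to 2076 ± 155 (log2 fold change -1.45, SE 0.06), and Snhg5 from 4282 ± 414 to 1273 ± 82.9 (-1.74, SE 0.07). Of the 16, the annotation places a snoRNA gene taken here only in Gas5, Snhg1, Snhg6, Snhg8, Snhg9, Snhg12, Snhg14 and Snhg18. Snhg4 and Snhg7 were not matched in it, so whether they hold such a gene could not be read.

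The largest falls were of Snhg11 and Snhg14. The annotation types Snhg11 as protein-coding and places none of the snoRNA genes taken here inside it. Snhg11 went from a normalized count of 3365 ± 197 to 321 ± 18.7, which is 10.5-fold lower (log2 fold change -3.39, SE 0.07, adjusted p = 7.7e-14, edgeR). Snhg14, the long imprinted transcript that carries the Snord116 genes, went from 4910 ± 602 to 470 ± 0.684, which is 10.4-fold lower (log2 fold change -3.38, SE 0.08). Its annotated span runs antisense over Ube3a, so that without the strand its counts are uncertain. Snhg3 followed at -2.87 and Snhg4 at -2.55, then Snhg12 at -2.0, Snhg7 at -1.65, Snhg17 at -1.21 and Snhg6 at -1.07, all on the log2 scale with SEs of at most 0.10. Snhg3, Snhg6 and Snhg17 also overlap exons of other annotated genes, and Snhg4 and Snhg7 were not matched in the annotation.

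Snhg18 went the other way, from 82 and 65 counts in Undiff to 377 and 585 in Day4. Its normalized count rose 5.18-fold, from 81.6 ± 5.43 to 421 ± 39.1 (log2 fold change 2.37, SE 0.13, adjusted p = 1.3e-09, edgeR). The snoRNA inside it, Snord123, had 1, 0, 4 and 1 counts, too few for a call. Snhg8 differed little, with 477 and 510 normalized counts in Undiff and 554 and 556 in Day4 (log2 fold change 0.17, SE 0.08, adjusted p = 0.061, edgeR). Snhg20 went from 265 ± 21.9 to 136 ± 5.74 (log2 fold change -0.95, SE 0.12, adjusted p = 8.2e-06, edgeR), a difference larger than the spread between replicates but below the fold minimum, which it passed without Undiff replicate 1 (-1.04), without Day4 replicate 2 (-1.03) and with all libraries thinned to the smallest total (-1.0). Snhg10 and Snhg9 had log2 fold changes of -0.18 (SE 0.28) and 0.43 (SE 0.72), and their states overlapped; the sign turned for Snhg10 without Undiff replicate 2 (0.17) and for Snhg9 without Day4 replicate 1 (-0.02).

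**Figure D3:**
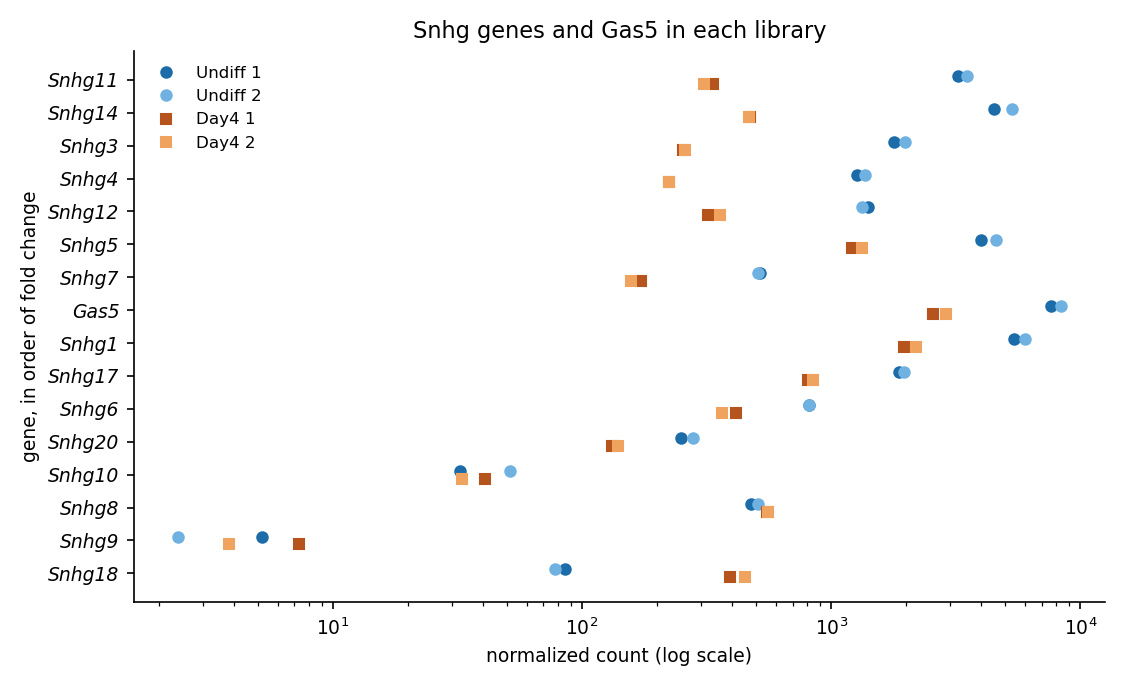
Normalized count (horizontal axis, log scale) of each Snhg gene and Gas5 in the 2 Undiff libraries (circles) and the 2 Day4 libraries (squares), ordered by fold change. Undiff lies right of Day4 without overlap from Snhg11 down to Snhg20, the states overlap for Snhg10 and Snhg9, and Day4 lies right of Undiff for Snhg8 and Snhg18.

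Each snoRNA gene was then set against the gene it lies in. A host on the same strand was annotated for 71 box C/D and 34 box H/ACA genes, and 86 snoRNA genes with a count could be paired with 63 host genes in the count files. The snoRNA had the lower log2 fold change in 82 of the 86 pairs. Of the 63 hosts, 17 were called lower, 2 were called higher and 44 were not called, against 20.6% lower and 22.2% higher over all genes (24.9% and 26.8% of those that passed the minimum count). The median log2 fold change was -2.60 over the 86 snoRNA genes and -0.42 over the 63 hosts. In an edgeR fit with the host count of each library as an offset, the snoRNA count fell relative to the host by the same thresholds in 56 of the 86 pairs, of which 65 passed the minimum count. Over all genes of that fit, 20.6% were called lower. Genes other than these snoRNA genes had no host offset there, so that share is not one of ratios, and a background of ratios was not measured. No snoRNA gene rose relative to its host by these thresholds. The 9 that passed the minimum but were not called were Snord1c, Snord42a, Snord45b, Snord69, Snord91a, Snord98, Snora5c, Snora28 and Snora64. Snora28 and Snord45b had ratios of -0.99 on the log2 scale, just short of the fold minimum, and Snord91a had a ratio of 0.50 (SE 0.41, adjusted p = 0.29, edgeR) in Tsr1, a ribosome maturation gene that fell.

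SnoRNA genes inside ribosomal protein genes made up 31 pairs with 22 hosts. None of the 22 hosts was called in either direction, against 42.8% of all genes, with log2 fold changes from -0.80 to 0.30 and a median of -0.28. Of the 31 snoRNA genes in them, 25 were called lower, against 20.6% of all genes, and their median log2 fold change was -2.67. The ratio to the host was called lower in 24 of these 31 pairs. Snora65 had 13.6 and 11.7 counts per 1000 counts of its host Rpl12 in Undiff and 2.97 and 2.43 in Day4, a log2 fold change of the ratio of -2.24 (SE 0.14, adjusted p = 3.1e-09, edgeR). Rpl12 itself had a log2 fold change of -0.43. Snora52 had 6.13 and 4.27 counts per 1000 of Rplp2, whose log2 fold change was 0.30, and 0.349 and 0.34 in Day4 (ratio -3.90, SE 0.36). Outside these 22 hosts, Snord96a, in the ribosomal scaffold gene Rack1, had 9.35 and 10.7 counts per 1000 host counts in Undiff and 1.9 and 1.68 in Day4 (ratio -2.50, SE 0.11, adjusted p = 5.2e-11, edgeR), while Rack1 had a log2 fold change of -0.30. The same order held for Snora31 in Tpt1, a translationally controlled growth gene, with 1.49 and 1.83 against 0.148 and 0.159 per 1000 (ratio -3.40, SE 0.28).

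Of the 12 hosts that the annotation types as noncoding, 7 were called lower, 1 (Snhg18) was called higher and 4 were not called. They include Cct6a, a chaperonin subunit gene that is typed as a processed transcript. Their median log2 fold change was -1.12 over the 12 hosts, and that of the 18 snoRNA genes in them was -2.87. For the 51 coding hosts, of which 10 were called lower and 1 higher, the median was -0.37, and for the 68 snoRNA genes in them it was -2.48. Over all genes 20.6% were called lower and 22.2% higher, and the share of coding hosts called lower was near the former. The difference between the kinds of host was not tested. The ratio to the host was called lower in 14 of the 18 pairs with a noncoding host and in 42 of the 68 pairs with a coding host. Snord47 had 12.7 and 11.9 counts per 1000 of Gas5 in Undiff and 4.06 and 6.35 in Day4 (ratio -1.18, SE 0.28, adjusted p = 0.0017, edgeR). Snord22 had 66.4 and 48.1 per 1000 of Snhg1 against 24.4 and 26.4 (ratio -1.17, SE 0.20), and Snord87 had 21.9 and 32.3 per 1000 of Snhg6 against 7.59 and 10.5 (ratio -1.52, SE 0.55). In Snhg12, which holds 4 of the snoRNA genes, the ratios fell by 1.68 for Snord99, 1.64 for Snora44, 1.55 for Snora16a and 1.09 for Snora61 on the log2 scale. These 4 share a host, so they are not independent of one another.

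**Figure D4:**
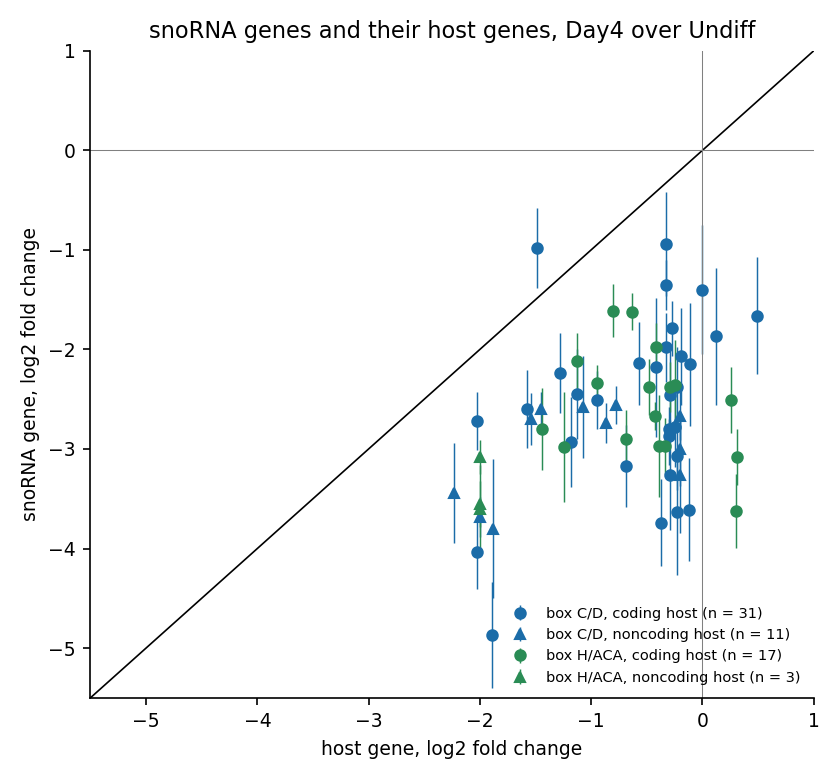
Log2 fold change of the snoRNA gene (vertical axis, bars of 1 SE) against that of its host gene (horizontal axis) for the 62 pairs whose snoRNA gene passed the minimum count and had a count in Day4. Colours are the snoRNA classes, circles are coding hosts and triangles noncoding hosts, and the diagonal is equal change. Of the 62 points, 1 lies above the diagonal, Snord91a in Tsr1.

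Several hosts hold more than 1 snoRNA gene, and differences within a host were not tested. In Rpl23a, Snord4a had a log2 fold change of -1.35 (SE 0.25), Snord42b of -1.98 (SE 0.35) and Snord42a of -0.94 (SE 0.52), within about 2 SEs of each other. In Gnl3, with a log2 fold change of -2.03, Snord19 stood at -4.04 (SE 0.37) and Snord69 at -2.72 (SE 0.29). Relative to Gnl3, Snord19 fell (ratio -2.04, adjusted p = 0.00090, edgeR), whereas Snord69 did not pass (ratio -0.70, adjusted p = 0.065). In Rps12 the box H/ACA gene Snora33 and the box C/D gene Snord100 stood at -2.90 (SE 0.29) and -3.17 (SE 0.41). In Eif4a2, a translation helicase gene, the box H/ACA gene Snora81 and the box C/D gene Snord2 stood at -2.34 (SE 0.18) and -2.51 (SE 0.29). In both hosts the 2 classes differed by less than 1 SE of the box C/D gene.

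Position relative to host exons was recorded because a fragment that also overlaps an exon of another gene can be set aside as ambiguous and counted on neither. Ambiguous fragments were 1.84% to 1.91% of the fragments in these libraries. Of the 86 pairs, 43 had the snoRNA in an intron of every annotated isoform and 43 had it over an exon of some isoform. The median log2 fold change was -2.38 for the intronic snoRNA genes, whose ratio to the host was called lower in 25 of 43 pairs, and -2.74 for the others, with 31 of 43 pairs. Where members that overlap an exon of another gene were left out, 20 of 39 box C/D genes and 7 of 13 box H/ACA genes were called lower, genes without a count included. Over all genes with a count, 20.6% were called lower. Without those members the log2 ratio of the class sums was -1.95 for box C/D, including Snord104, and -2.55 for box H/ACA.

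Of the protein genes of snoRNA particles, 13 of the 21 in the files were called lower and 0 higher, against 20.6% of all genes called lower. Nop56, a core protein of box C/D particles and the host of Snord57, went from 24719 ± 1032 to 6662 ± 72.2 normalized counts (log2 fold change -1.89, SE 0.04, adjusted p = 1.5e-13, edgeR). Nop58, its partner, fell by 1.18 on the log2 scale, and Fbl, the methyltransferase fibrillarin, fell by 1.11, while Nhp2l1, the C/D core protein Snu13, had a log2 fold change of -0.82. Among the box H/ACA core, Nhp2 had a log2 fold change of -2.19, Dkc1, the pseudouridine synthase dyskerin, of -1.66 and Nop10 of -1.54, and Gar1 stood at -0.96, or -1.07 without Undiff replicate 1. Of the 13 assembly and transport genes in the files, 7 were called lower. Naf1 and Shq1, assembly factors of box H/ACA particles, fell by 1.90 and 1.89 on the log2 scale. Nolc1 and Tcof1, nucleolar phosphoproteins, fell by 1.86 and 1.38, Nufip1 and Znhit3, assembly factors of box C/D particles, by 1.28 and 1.03, and Coil, the coilin of Cajal bodies, by 1.24. Znhit3 was short of the fold minimum with library totals (-0.96), without Undiff replicate 2 (-0.97) and, before rounding, without Day4 replicate 2 (-1.0). Pih1d1, a cochaperone subunit, stood at 0.77.

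Nonsense-mediated decay genes were measured because Snhg transcripts are among its targets. None of the 10 was called in edgeR, against 42.8% of all genes called in either direction, although 7 had an adjusted p of at most 0.05 with a lower level and 2 with a higher level. Their log2 fold changes ran from -0.92 for Upf3b to 0.62 for Smg6, and Upf1, the central helicase, stood at -0.75 (SE 0.04).

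**Figure D5:**
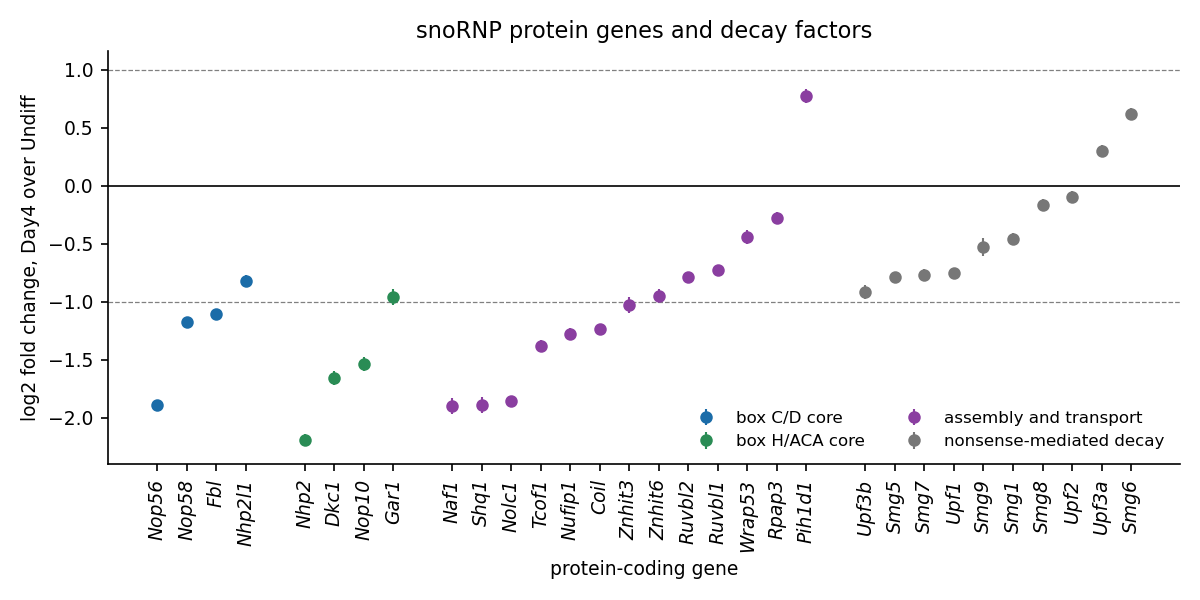
Log2 fold change of Day4 over Undiff (vertical axis, bars of 1 SE) for the box C/D core, box H/ACA core, assembly and transport, and nonsense-mediated decay genes (horizontal axis). Dashed lines mark 1 and -1. The lowest is Nhp2 at -2.19 and the highest is Pih1d1 at 0.77, and all 10 decay genes lie between the dashed lines.

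Other short RNAs without a poly(A) tail had few counts in these libraries. Of 20 on the list, 15 were in the files and 4 reached a mean normalized count of 5. Rmrp, the RNA of an endoribonuclease that processes ribosomal RNA, had 10 and 5 counts in Undiff and 6 and 6 in Day4 (log2 fold change -0.64, SE 0.59, adjusted p = 0.33, edgeR). Rpph1, the RNA of ribonuclease P, had 18 and 13 against 17 and 8 (-0.63, SE 0.49, adjusted p = 0.25). Both are transcribed from their own promoters, and in both the states overlapped. Without Day4 replicate 1 the log2 fold change of Rpph1 was -1.47 (adjusted p = 0.031), and without Day4 replicate 2 it was 0.01. Scarna13 and Scarna6, guide RNAs of Cajal bodies, had log2 fold changes of -1.57 (SE 0.61) and -2.20 (SE 0.76) and were called lower, with adjusted p-values of 0.032 and 0.019 (edgeR) on 11 or fewer counts in each library, and both calls were lost under DESeq2 (adjusted p = 0.23 and 0.10 with the settings of the study). With the replicate number as a block the adjusted p of Scarna13 was 0.052. Leaving out a replicate gave adjusted p-values of 0.075 to 0.10 for Scarna13, and of 0.061 without Undiff replicate 1 and 0.083 without Day4 replicate 1 for Scarna6.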

How the data were processed

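RNA of R1 ESCs was sequenced on the Illumina TruSeq platform in 2 Undiff and 2 Day4 libraries. The authors used cutadapt for trimming, STAR 2.4.2a for alignment to mm10, and they counted uniquely mapped fragments per gene with HTSeq, and they deposited the raw counts of each gene symbol. The methods say that gene counting took account of strandedness and name the option for Direct RNA only, and for exons they state unstranded counting of the other libraries, so the option behind these gene counts is not explicit. No other values were used, and the long-read libraries were not analysed here.

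The genes and lists were chosen with earlier results of these data known. The tests used TMM scaling and edgeR 4.0.16 (glmQLFit with legacy = FALSE, glmQLFTest) in R 4.3.3 over all 19891 genes with a count, with Benjamini-Hochberg adjustment over them. A gene was called where the adjusted p was 0.05 or less, the log2 fold change was 1 or more in size and the normalized count averaged 5 or more, as the study did. The SE was the size of the log2 fold change divided by the square root of F. Normalized counts are scaled to a common effective library size, and ± gives the SD of 2 libraries. A fold against a state at 0 was set against 3 counts in each library, and ratios with 1 to 3 counts in a state have exact 95% intervals. The p-values set the difference between the states against the spread between these libraries, which edgeR moderates across genes. Libraries held 32099074 to 47730944 counts on genes. In simulated counts for this comparison (19547 genes), 99 of 100 genes changed by a log2 fold change of 2 and 100 of 100 changed by 3 were called, and 0 unchanged genes. All genes were simulated with the same dispersion of 0.00134, and genes with the lowest counts were not among those changed. The simulation therefore does not give the recovery of snoRNA genes with few counts.

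Positions, hosts and sequences were taken from GENCODE vM21 (GRCm38) by symbol. The authors counted genes on another annotation, the mm10 one of iGenomes UCSC, whose exons may differ from those used here. A host is a gene on the same strand that spans the whole snoRNA gene. No test had been planned for the ratio of snoRNA to host, and the fit with host offsets was added after the data were seen. The genes named are all Snhg genes and Gas5, those of each class with the most counts and the largest and smallest called changes, snoRNA genes inside Snhg genes and Gas5, hosts, and called or core proteins. Others, among them the snoRNA genes that were not called and those that share a host, were chosen after their values were seen. Alternatives were DESeq2 1.42.0, other scaling, low-count filters, thinning, a replicate block and leaving out each library.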

Additional observations from a re-analysis of the deposited data

How the results depend on the processing

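The counts of called snoRNA, Snhg and snoRNP protein genes stayed within 1.5 times under the other normalizations, DESeq2, filterByExpr, thinning and without each replicate, with these exceptions. With members that overlap an exon of another gene left out, 20 box C/D, 7 box H/ACA and 7 host genes were called lower, since fewer genes were counted. Without a minimum fold, 20 snoRNP protein genes were called lower and 1 higher. The log2 ratio of the summed box C/D counts was -1.69 per fragment on no gene and -1.95 without exon overlaps, and that of box H/ACA was -1.71, -2.55 and, with library totals, -2.52. Without 1 replicate, called lower ranged from 41 to 46 box C/D, 24 to 25 box H/ACA, 11 to 12 host and 12 to 14 snoRNP genes, and 51 to 53 ratios. Of 873 values of the 80 named genes under alternatives, 846 kept their direction and side of the threshold, 19 fell short of it, 5 passed it and 3 turned sign. Without 1 replicate Rpph1 ranged from -1.47 to 0.01, Snhg10 from -0.50 to 0.17 and Snhg9 from -0.02 to 1.11. The cause was not tested. The states share replicate numbers, but deviations of same-numbered libraries from their state means had a correlation of -0.01 over 16472 genes. With the number as a block, 44 box C/D, 24 box H/ACA, 11 host and 13 snoRNP genes were called lower, and 55 ratios. The ratios were refitted only with the block and without each replicate. The summed counts come from no test. Depth limits the 22 snoRNA genes with a count below the minimum, for which a change may not have been detectable.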
